A study of Mus musculus with 9 samples.

Results

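Aminoacyl-tRNA synthetases are the enzymes that attach each amino acid to its own tRNA, and 36 genes that encode them were followed here in mouse joint cartilage cells. The genes were taken by symbol from the 55450 genes listed for each of 9 libraries, and all 36 were found. Of these, 20 carry the names of the cytosolic enzymes and 16, with symbols that end in 2, those of the mitochondrial enzymes. All 20 cytosolic genes and 15 of the mitochondrial genes passed the filter on low values (at least 1 FPKM in at least 3 libraries), as did 12441 genes in all. Mars2, the mitochondrial methionine enzyme, did not pass and is given by its levels only, alone and in its pair with Mars1.

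The cells were primary mouse articular chondrocytes in culture at 3% oxygen with 10% serum, and all groups received hyaluronidase at 4 U/mL for 4 h first. The vehicle group then had buffer for 24 h and DMSO for 5 days. The bleomycin group had 50 µg/mL of bleomycin, a drug that cuts DNA strands, for 24 h and DMSO for 5 days. The remaining group had the same bleomycin and then ST045849, an inhibitor of the O-GlcNAc transferase OGT, at 20 µM for 5 days, with medium renewed every 48 h. Each group had 3 libraries of poly(A) RNA. The labels name no strain, age or sex and do not tie the libraries to animals or culture dishes, so that p-values measure the spread between these samples, which may be technical. ST045849 without bleomycin was not analysed here.

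Cytosolic synthetases supply the ribosomes of the cytoplasm, and a separate set of enzymes, also encoded in the nucleus, supplies the ribosomes inside mitochondria. Several cytosolic enzymes are held together in the multisynthetase complex, whereas others work outside it. Gars and Kars, for glycine and lysine, each make both the cytosolic and the mitochondrial enzyme from the same gene, and are counted here as cytosolic by their names. Qars serves glutamine in the cytosol, while mitochondria make glutaminyl-tRNA by another route, through amidation of a tRNA charged with glutamate. Many cytosolic synthetase genes are known targets of ATF4, the transcription factor of the amino acid response, which binds C/EBP-ATF composite elements. Chondrocytes secrete large amounts of matrix protein, and charged tRNA is a substrate of that synthesis.

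The core of that composite element, TGATGNAA, was searched on both strands of the RefSeq promoter windows (GRCm38.p6), from 250 bases before to 50 bases after each gene start. It was present in 5 of the 13 cytosolic genes that had a window (38.5%) and in 0 of 14 mitochondrial genes, against 4.51% of all 27025 genes with a window. A match in each of the 5 genes is shown with its neighbouring bases because these matches were found in cytosolic windows and in none of the mitochondrial windows searched, although most cytosolic windows lacked the motif as well. The difference between the sets was given no test. Capitals mark the match on the strand of the gene, so that TTGCATCA and TTTCATCA are the motif read from the other strand.
Aars, chr8:111033840-111033869, plus strand: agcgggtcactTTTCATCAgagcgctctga
Gars, chr6:55037960-55037989, plus strand: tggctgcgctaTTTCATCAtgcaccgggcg
Iars, chr13:49682126-49682155, plus strand: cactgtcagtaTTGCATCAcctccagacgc
Tars, chr15:11399655-11399684, minus strand: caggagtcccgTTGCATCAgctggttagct
Yars, chr4:129189895-129189924, plus strand: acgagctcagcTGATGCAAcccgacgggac

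Counted from the RefSeq gene start, the first base of the match shown lay at 9 in Aars, -30 in Gars, 7 in Iars, -15 in Tars and 3 in Yars. Dars, Eprs, Kars, Mars1, Qars, Sars, Farsa and Farsb had a window without the motif. Cars, Hars, Lars, Nars, Rars, Vars, Wars, Hars2 and Pars2 were not in the window table. A match is a stretch of letters and not a measured binding site.

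Cytosolic synthetase genes were expressed at higher levels than their mitochondrial counterparts in every library. Between amino acids the cytosolic gene exceeded the mitochondrial gene by 2.87-fold (Farsa over Fars2, phenylalanine) to 101-fold (Mars1 over Mars2, methionine), as the ratio of mean FPKM over the 9 libraries, a length-scaled unit. In vehicle cells the cytosolic order ran from Gars at 149 ± 40.1 FPKM (SD, n = 3), Eprs at 107 ± 15.4 and Sars at 96.3 ± 27 down to Farsa at 18.9 ± 4.77 and Wars at 16.3 ± 4.93. Each neighbouring pair in that order overlapped in its 3 libraries. The mitochondrial order ran from Rars2 at 11.4 ± 2.58 FPKM and Hars2 at 9.39 ± 1.55 down to Pars2 at 1.39 ± 0.485 and Mars2 at 0.444 ± 0.0283. Here Lars2 stood above Nars2, and Pars2 above Mars2, without overlap, and each other neighbouring pair overlapped.

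**Figure D1:**
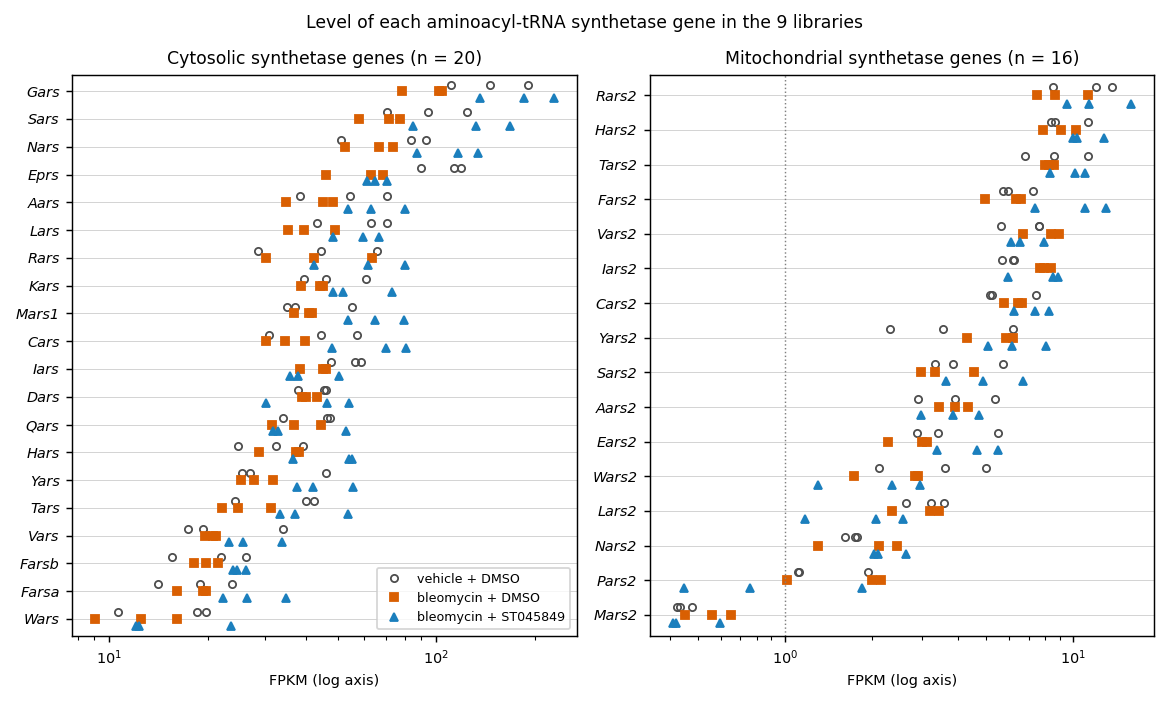
FPKM (log axis) of the 20 cytosolic genes, left, and the 16 mitochondrial genes, right, with each point 1 library of the vehicle, bleomycin or bleomycin plus ST045849 group, genes ordered by their mean, and a dotted line at 1 FPKM. The cytosolic genes lie mostly above 10 FPKM and the mitochondrial genes mostly below it, and the ST045849 points of Gars, Cars, Nars and Fars2 lie to the right of their bleomycin points.

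The libraries carried chondrocyte markers throughout. All 9 markers listed (Col2a1, Acan, Sox9 and others) passed the filter, and their summed FPKM was 25778 to 35015 in vehicle, 19019.6 to 26474 in bleomycin and 15523 to 22498 with ST045849. Of 9 macrophage markers 3 passed, with sums of 3.03 to 5.71, 10.8 to 12.6 and 11.8 to 17.8 FPKM, and C1qb, C1qc and Tyrobp were at 0 in all 9 libraries. Of 6 fibroblast or synovial markers 5 passed, with sums of 649.5 to 803, 1096 to 1685 and 539 to 1296 FPKM; of 3 muscle markers 1 passed, and of the endothelial and erythroid markers 0 passed. The part of these markers in the synthetase results was not tested, and in bulk RNA fewer cells of a type and less RNA per cell cannot be told apart. The library of ST045849 replicate 1 stood apart from the other two of its group. Its slope of level on transcript length was 0.0186 log2 units per doubling of length, against -0.212 and -0.139 in replicates 2 and 3, while bleomycin libraries lay between 0.0382 and 0.0968. Vehicle replicate 1 stood apart from its group in the same measure, at -0.0719 against 0.101 and 0.0751. FPKM sums of replicates 1, 2 and 3 were 406644, 340303 and 365028 in vehicle and 356573, 370089 and 364201 in bleomycin. With ST045849 they were 382247, 483953 and 468012, so that replicates 2 and 3 had the highest sums. No setting scaled the libraries by their sums, and the part of the sums in the synthetase results was not tested. The depth of the libraries is unknown.

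Eprs, which encodes the joined enzyme for glutamate and proline and is a part of the multisynthetase complex, was the 1 synthetase gene of 35 that changed with bleomycin against vehicle. Its gene lies at chr1:185363044-185428360 (plus strand, GRCm38) and has 18102 bases of annotated exon, the most of the cytosolic set. Eprs stood at 113, 89.8 and 119 FPKM in vehicle, at 63.3, 45.9 and 68.8 in bleomycin, and at 70.9, 61.5 and 65.1 with ST045849. Every vehicle library was above every library of the other groups. Eprs fell by 0.85 ± 0.21 (SE) on the log2(FPKM + 1) scale (adjusted p = 0.047, limma, adjusted by Benjamini-Hochberg over all 12441 genes), where 0.675% of all genes were called lower and 4.2% higher (1.21% lower and 2.57% higher after median-of-ratios scaling). The call was lost when any single vehicle or bleomycin library, or ST045849 replicate 3, was left out (adjusted p of 0.0583 to 0.224), with no filter, with a mean of at least 5 FPKM, and under quantile normalization (adjusted p = 0.0544).

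The other cytosolic genes leaned the same way without passing the test. The change was below 0 for 19 of 20 cytosolic genes, against 38% of all genes. That count was 20 after median-of-ratios scaling and after removal of the length trend, 19 under quantile normalization and 15 with array weights. With 1 library left out, the highest change was 0.28 for Rars, 0.15 for Vars, 0.15 for Farsa and 0.14 for Mars1. It was 0.10 for Yars, 0.09 for Farsb and 0.00 for Kars, and the rest of the 19 stayed below 0. The median of the cytosolic set was -0.19 and that of the mitochondrial set -0.05, beside 0.10 for all genes. That last value became -0.05 after median-of-ratios scaling, -0.03 under quantile normalization and -0.03 with the length trend removed, and the set medians became -0.36, -0.23 and -0.34 for the cytosolic and -0.19, -0.18 and -0.19 for the mitochondrial set. Eprs, Gars and Iars had bleomycin libraries wholly below vehicle, 3 of 20, where 6.53% of all genes did.

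Gars, the glycine enzyme of both compartments, lies at chr6:55038007-55079500 (plus strand). It stood at 191, 111 and 146 FPKM in vehicle, at 78.6, 104 and 102 in bleomycin, and at 136, 229 and 186 with ST045849. The bleomycin libraries were the lowest, and the 2 other groups overlapped. Gars differed by -0.63 ± 0.27 between bleomycin and vehicle (adjusted p = 0.255). Iars, the isoleucine enzyme and a complex member, stood at 56.6, 47.8 and 59 FPKM in vehicle and at 38.2, 45 and 46 in bleomycin, a difference of -0.33 ± 0.20 (adjusted p = 0.467). Lars, the leucine enzyme of the complex, stood at 70.9, 43.3 and 63 FPKM in vehicle and at 35.2, 39.5 and 48.9 in bleomycin, which overlap, a difference of -0.49 ± 0.24 (adjusted p = 0.322). Rars, the arginine enzyme, had the smallest cytosolic difference, -0.01 ± 0.36, with 44.4, 28.5 and 65.9 FPKM in vehicle, 30.2, 42.2 and 63.8 in bleomycin, and 42.3, 61.8 and 80.3 with ST045849.

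None of the 15 mitochondrial genes was called between bleomycin and vehicle, and 0 had an unadjusted p under 0.05 (17.4% of all genes had). Iars2, the mitochondrial isoleucine enzyme, stood at 6.24, 6.17 and 5.65 FPKM in vehicle, at 7.66, 7.94 and 8.37 in bleomycin, and at 8.83, 5.92 and 8.52 with ST045849. It was the 1 mitochondrial gene whose bleomycin libraries were wholly above vehicle, where 21.4% of all genes were, and it differed by 0.36 ± 0.19 (adjusted p = 0.365). Of its exon length 24.2% is overlapped by genes on the opposite strand, and the labels do not say whether counting used strand. Yars2, the tyrosine enzyme, stood at 6.19, 2.32 and 3.54 FPKM in vehicle and at 4.29, 6.18 and 5.84 in bleomycin, which overlap. Ears2, the glutamate enzyme, stood at 5.5, 3.41 and 2.88 FPKM in vehicle and at 3, 3.1 and 2.28 in bleomycin, and overlapped as well. Aars2, the alanine enzyme, had the smallest mitochondrial difference, -0.02 ± 0.22, from 5.34, 3.9 and 2.9 FPKM in vehicle to 4.33, 3.88 and 3.42 in bleomycin.

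**Figure D2:**
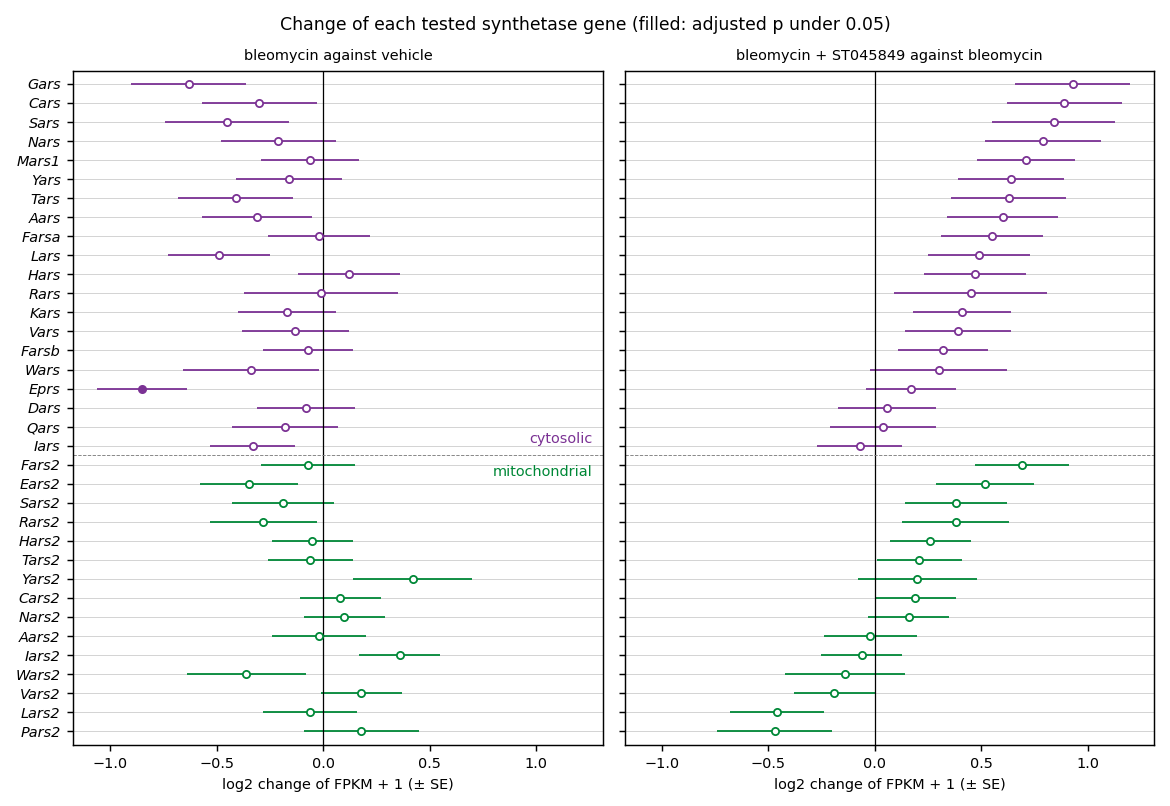
Change of the 35 tested synthetase genes on the log2(FPKM + 1) scale ± SE from the limma fit of 9 libraries, with bleomycin against vehicle on the left and bleomycin plus ST045849 against bleomycin on the right, and the sets separated by a dashed line. Eprs, at -0.85, is the single filled point (adjusted p under 0.05), and 19 of 20 cytosolic points lie above 0 on the right.

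Whether cytosolic synthetase genes were called higher when ST045849 was added to bleomycin-treated cells depended on which libraries were fitted and how they were matched. In the fit of all 9 libraries 0 of 20 cytosolic and 0 of 15 mitochondrial genes passed, as did 0 of 12441 genes in all (0%). Unadjusted p-values under 0.05 were found for 9 cytosolic and 2 mitochondrial genes, all of them higher with ST045849, where 13.7% of all genes were. Libraries of equal replicate number deviated together between these 2 groups, which the labels do not explain. With the replicate number as a block in the fit of all 9 libraries, 0 genes of either set passed, as did 0 of 12441 genes in all. The same held, for the sets and for all genes, in the 2 groups fitted alone without the block. The comparison was also fitted with both changes, as a paired fit of the 2 groups alone with the replicate number as a block. In that paired fit 8 of 20 cytosolic genes rose (Aars, Cars, Gars, Mars1, Nars, Sars, Tars and Yars, with adjusted p of 0.0186 to 0.0466) and 1 of 15 mitochondrial genes rose (Fars2, adjusted p = 0.0295), and 0 of either set fell, where 11.3% of all genes were called higher and 8% lower. With the length trend of each library also removed, Aars (adjusted p = 0.0474) and Cars (adjusted p = 0.0381) rose and 0 mitochondrial genes did, where 0.627% of all genes were called higher.

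The 8 calls were lost without pair 2 or pair 3 of the libraries, as were most calls over all genes. Leaving out pair 1 gave 9 cytosolic rises (the 8 and Farsa), with Ears2 and Fars2 higher and Lars2 and Pars2 lower among mitochondrial genes, where 19.4% of all genes were called higher and 14.6% lower. Leaving out pair 2 or pair 3 gave 0 in both sets. Over all 12441 genes, calls higher went from 1408 in the paired fit to 76 without pair 2 and 99 without pair 3. In the fit of all libraries without ST045849 replicate 1, Cars, Gars, Mars1, Nars, Sars and Fars2 rose (adjusted p of 0.0263 to 0.042), where 10.7% of all genes did.

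Cars, the cysteine enzyme at chr7:143557230-143600090 (minus strand), stood at 30.1, 34.5 and 39.7 FPKM in bleomycin and at 48.1, 70.4 and 81.1 with ST045849. Vehicle libraries stood at 57.2, 30.9 and 44.5. Each ST045849 library was above each bleomycin library, and Cars differed by 0.89 ± 0.27 (adjusted p = 0.203), or by 0.89 ± 0.19 in the paired fit (adjusted p = 0.0186). Gars, whose promoter window holds the motif shown above, had levels of 78.6 to 104 FPKM in bleomycin and 136 to 229 with ST045849. It differed by 0.93 ± 0.27, the most of the set, with adjusted p = 0.203 and 0.0186 when paired.

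Nars, the asparagine enzyme, stood at 93, 51.3 and 83.8 FPKM in vehicle, at 52.6, 66.8 and 73.7 in bleomycin, and at 87.2, 117 and 134 with ST045849. Sars, the serine enzyme, stood at 124, 70.5 and 94.1 FPKM in vehicle, at 57.9, 71.5 and 77.4 in bleomycin, and at 85.2, 168 and 132 with ST045849. Mars1, the methionine enzyme of the complex, stood at 55.2, 34.9 and 36.9 FPKM in vehicle, at 36.6, 41.7 and 40.8 in bleomycin, and at 53.6, 79.9 and 64.9 with ST045849. For all 3 genes the ST045849 libraries lay wholly above bleomycin, and ST045849 replicate 1 was the lowest of its group. Their differences were 0.79 ± 0.27, 0.84 ± 0.29 and 0.71 ± 0.23, and their adjusted p-values 0.203 in the fit of all libraries and 0.0221, 0.0234 and 0.029 when paired. Mars1 shares 1.99% of its exon length with Ddit3 on the opposite strand.

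Aars, the alanine enzyme, lies at chr8:111033144-111057664 (plus strand), and 14.3% of its exon length is shared with Exosc6 on the same strand. It stood at 70.8, 38.2 and 54.6 FPKM in vehicle, at 34.8, 45 and 48.5 in bleomycin, and at 53.8, 80.3 and 63 with ST045849. Its ST045849 libraries lay wholly above bleomycin, with a difference of 0.60 ± 0.26 (adjusted p = 0.213, and 0.0466 when paired), or 0.91 with the length trend removed. Tars, the threonine enzyme, stood at 40.1, 24.2 and 42.2 FPKM in vehicle, at 22.1, 24.7 and 31.3 in bleomycin, and at 33.3, 37 and 53.6 with ST045849. Yars, the tyrosine enzyme, stood at 46, 25.4 and 27 FPKM in vehicle, at 25.3, 31.6 and 27.8 in bleomycin, and at 37.4, 55.8 and 42 with ST045849. Both had ST045849 libraries wholly above bleomycin, with differences of 0.63 ± 0.27 and 0.64 ± 0.25 and paired adjusted p-values of 0.036 and 0.0352.

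In all, 12 of 20 cytosolic genes had every ST045849 library above every bleomycin library, where 16.5% of all genes had. The change was above 0 for 19 of 20, against 55.1% of all genes, and for 17 after median-of-ratios scaling, 16 under quantile normalization and 19 with the length trend removed. The ST045849 library was above the bleomycin library of the same number in all 3 pairs for 15 of the 20, against 36.4% of all genes, and the exceptions were Dars, Eprs, Iars, Qars and Wars. Qars had the smallest cytosolic difference, 0.04 ± 0.25, from 31.4, 36.7 and 44.4 FPKM in bleomycin to 31.7, 53 and 32.8 with ST045849, beside 46.3, 47.2 and 34 in vehicle. Iars, which also holds the motif, had 50.6, 37.7 and 35.7 FPKM with ST045849 and differed by -0.07 ± 0.20, the 1 cytosolic value below 0. Kars, the lysine enzyme of both compartments, stood at 61.2, 39.3 and 45.9 FPKM in vehicle, at 38.6, 44.9 and 44.1 in bleomycin, and at 48.2, 73.1 and 51.9 with ST045849. Its ST045849 libraries lay above bleomycin, with a difference of 0.41 ± 0.23 (adjusted p = 0.281, and 0.135 when paired).

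A grouping by the multisynthetase complex, chosen after the values were seen, described where the cytosolic genes were higher. The 8 genes of enzymes in the complex (Eprs, Iars, Lars, Mars1, Qars, Rars, Kars and Dars) had a median difference of 0.29, and 1 of them rose in the paired fit. The 12 genes of enzymes outside it had a median of 0.62, and 7 rose in the paired fit, where 11.3% of all genes did. In the paired fit with the length trend also removed, 0 of the 8 and 2 of the 12 rose, where 0.627% of all genes did. With the length trend removed the medians were 0.33 and 0.73, although single genes moved, Eprs from 0.17 to 0.76. Under quantile normalization they were -0.02 and 0.38. The 5 genes with the promoter motif had a median of 0.63 and 4 rose when paired, and the 8 with a window without it had a median of 0.36 and 2 rose. When paired with the length trend also removed, 1 of these 5 and 0 of these 8 rose. These groupings were given no test.

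Single mitochondrial synthetase genes differed in both directions with ST045849, although the set mean was 2.43 to 2.56 in bleomycin and 2.58 to 2.65 with ST045849. Of the 15 tested, 9 had a change above 0, where 55.1% of all genes had, and 46.4% of genes with a mean between 1.38 and 10.9 FPKM. ST045849 libraries lay wholly above bleomycin in 2 (Fars2 and Ears2), where 16.5% of all genes had this. Fars2, the phenylalanine enzyme, lies at chr13:36117412-36726280 (plus strand), and 10.7% of its exon length is overlapped by Lyrm4 and Nrn1 on the opposite strand. Fars2 stood at 7.26, 5.69 and 5.96 FPKM in vehicle, at 4.93, 6.61 and 6.34 in bleomycin, and at 7.36, 11 and 13 with ST045849. Its ST045849 libraries were above those of both other groups. It differed from bleomycin by 0.69 ± 0.22 (adjusted p = 0.203), and passed when paired (0.0295) but not when the length trend was removed as well (0.0575).

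Ears2 had 3.36, 4.63 and 5.5 FPKM with ST045849, all above the bleomycin libraries, a difference of 0.52 ± 0.23 (adjusted p = 0.218, and 0.0837 when paired). Lars2, the leucine enzyme, stood at 2.64, 3.21 and 3.57 FPKM in vehicle, at 2.35, 3.19 and 3.42 in bleomycin, and at 2.58, 2.08 and 1.18 with ST045849, a difference of -0.46 ± 0.22 from bleomycin (adjusted p = 0.229). Pars2, the proline enzyme, stood at 1.95, 1.12 and 1.11 FPKM in vehicle, at 1.02, 2.15 and 2.01 in bleomycin, and at 1.85, 0.756 and 0.448 with ST045849, a difference of -0.47 ± 0.27 (adjusted p = 0.295). In both, ST045849 replicate 1 was the highest of its group and overlapped bleomycin. With the length trend removed the difference was -0.06 for Lars2, whose annotated exons span 11089 bases, and -0.67 for Pars2. Aars2 again had the smallest mitochondrial difference, -0.02 ± 0.22, with 3.84, 4.71 and 2.96 FPKM under ST045849. Mars2 stood between 0.41 and 0.653 FPKM in all 9 libraries.

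Most partner genes in the other compartment overlapped between bleomycin and ST045849. Hars2 stood at 11.2, 8.67 and 8.34 FPKM in vehicle, at 10.2, 9.03 and 7.84 in bleomycin, and at 10.3, 10 and 12.8 with ST045849. Nars2, the asparagine enzyme, stood at 1.78, 1.62 and 1.75 FPKM in vehicle, at 1.3, 2.12 and 2.45 in bleomycin, and at 2.04, 2.11 and 2.64 with ST045849. In both genes bleomycin and ST045849 libraries overlapped, with differences of 0.26 ± 0.19 and 0.16 ± 0.19. Rars2, the arginine enzyme, stood at 13.6, 8.52 and 12 FPKM in vehicle, at 7.47, 8.64 and 11.2 in bleomycin, and at 9.5, 11.3 and 15.9 with ST045849. Sars2, the serine enzyme, stood at 5.69, 3.33 and 3.82 FPKM in vehicle, at 3.33, 2.97 and 4.51 in bleomycin, and at 3.63, 6.68 and 4.87 with ST045849. These 2 overlapped as well, and each differed by 0.38. Of the cytosolic partners, Vars, the valine enzyme, stood at 33.9, 17.4 and 19.4 FPKM in vehicle, at 20.8, 21.2 and 19.6 in bleomycin, and at 25.7, 33.7 and 23.2 with ST045849. Farsb, the other subunit gene of the phenylalanine enzyme, stood at 26.1, 15.6 and 22 FPKM in vehicle, at 18.2, 21.5 and 19.8 in bleomycin, and at 23.9, 24.6 and 26.2 with ST045849. Vars and Farsb had ST045849 libraries wholly above bleomycin, with differences of 0.39 ± 0.25 and 0.32 ± 0.21, and neither passed in either fit (paired adjusted p = 0.145 and 0.216). Dars and Tars2, for aspartate and threonine, and Wars and Wars2, for tryptophan, overlapped between these groups, with differences of 0.06, 0.21, 0.30 and -0.14.

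Set side by side, the cytosolic median with ST045849 against bleomycin was 0.48 and the mitochondrial median 0.19, beside 0.06 for all genes. The difference between the set medians, 0.29, was 0.00 under quantile normalization, where the medians were 0.20 and 0.21. The mean log2(FPKM + 1) of the 20 cytosolic genes was 5.77, 5.13 and 5.54 in the vehicle libraries, 5.03, 5.25 and 5.39 in bleomycin, and 5.48, 5.88 and 5.76 with ST045849. That of the 15 mitochondrial genes was 2.75, 2.35 and 2.45, then 2.43, 2.56 and 2.53, then 2.58, 2.65 and 2.63. In both sets the ST045849 libraries lay above bleomycin, and the vehicle libraries overlapped both other groups. The cytosolic minus mitochondrial mean was 3.02, 2.78 and 3.09 in vehicle, 2.60, 2.69 and 2.85 in bleomycin, and 2.90, 3.22 and 3.13 with ST045849, so that here too ST045849 lay above bleomycin.

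The 2 sets also occupy different ranges of level, and the change with ST045849 varied with level over all genes. The 3683 tested genes with a mean between 14.9 and 143 FPKM, the span of the cytosolic genes, had a median change of 0.25, and 20.3% of them rose in the paired fit. Of these genes 68.6% had a change above 0, and 24% had ST045849 libraries wholly above bleomycin. The 6184 genes with a mean between 1.38 and 10.9 FPKM, the span of the tested mitochondrial genes, had a median of -0.04, and 5.9% rose. In that span 46.4% had a change above 0, and 11.8% had ST045849 libraries wholly above bleomycin. The part of level in the difference between the sets was not tested.

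**Figure D3:**
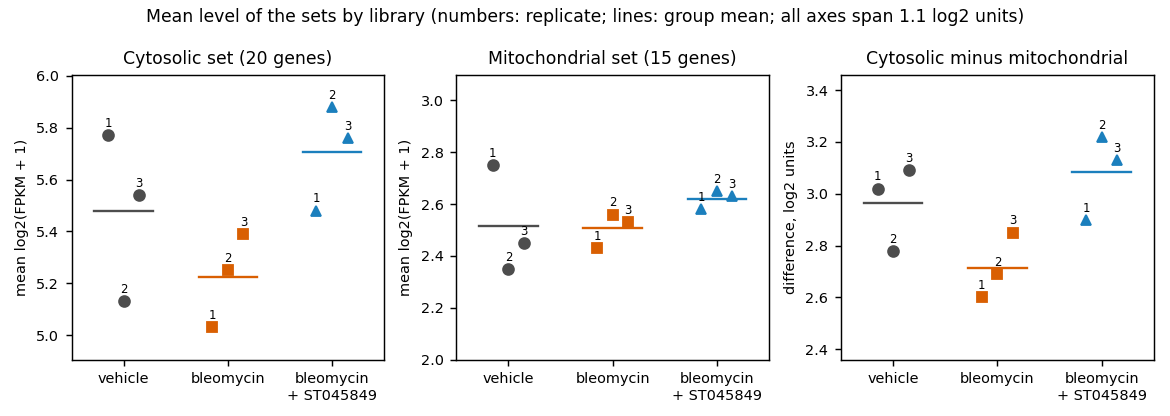
Mean log2(FPKM + 1) of the 20 cytosolic genes, of the 15 tested mitochondrial genes, and the difference of the 2 means, by library, with the replicate number at each point and a line at the group mean; each axis spans the same width. The difference is 2.60 to 2.85 in bleomycin and 2.90 to 3.22 with ST045849, and vehicle libraries lie between 2.78 and 3.09.

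Each amino acid with both genes gave 17 cytosolic to mitochondrial pairs, with Eprs set against both Ears2 and Pars2 and Fars2 against the 2 subunit genes Farsa and Farsb. The log2 difference within the pair was larger with ST045849 than with bleomycin alone in 13 of 17, and 7 did not overlap (Aars/Aars2, Cars/Cars2, Lars/Lars2, Mars1/Mars2, Nars/Nars2, Sars/Sars2 and Vars/Vars2). Of these, Mars1/Mars2 holds a gene below the filter. No share over pairs of other genes stands beside these counts. Over all tested genes in the span of level of each set, the median change was 0.25 (cytosolic span) and -0.04 (mitochondrial span). The part of level in the pair counts was not tested. The Lars/Lars2 pair had the largest shift, from 3.40 ± 0.12 (SD, n = 3) in bleomycin to 4.35 ± 0.59 with ST045849, with Lars at 48.5, 59.7 and 66.7 FPKM there. These pair values keep the length trend, and the ranking did not hold without it. With the trend removed the changes of single genes were 0.55 for Lars and -0.06 for Lars2, beside 0.76 for Eprs and -0.67 for Pars2. Cars/Cars2 went from 2.29 ± 0.20 to 3.00 ± 0.27, and Cars2 itself stood at 7.41, 5.22 and 5.16 FPKM in vehicle, 6.43, 5.75 and 6.63 in bleomycin and 6.24, 8.26 and 7.38 with ST045849. The pairs of phenylalanine and glutamate went the other way, Farsb/Fars2 from 1.59 ± 0.10 to 1.21 ± 0.33 and Eprs/Ears2 from 3.98 ± 0.45 to 3.62 ± 0.37, and both overlapped. With the length trend removed Farsb changed by 0.06 and Fars2 by 0.79, while Eprs changed by 0.76 and Ears2 by 0.57.

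Against vehicle, bleomycin had the smaller pair difference in 12 of 17, without overlap in Eprs/Pars2 (5.51 ± 0.29 to 4.47 ± 0.55), Iars/Iars2 (2.98 ± 0.20 to 2.29 ± 0.10) and Yars/Yars2 (2.78 ± 0.19 to 2.19 ± 0.12). These counts, too, have no share over pairs of other genes beside them. Here the median change over all tested genes was 0.06 in the cytosolic span of level and 0.13 in the mitochondrial span. Iars/Iars2 stayed at 2.27 ± 0.29 with ST045849. The bleomycin libraries are shared by both comparisons, so that the opposite directions are not independent of each other.

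**Figure D4:**
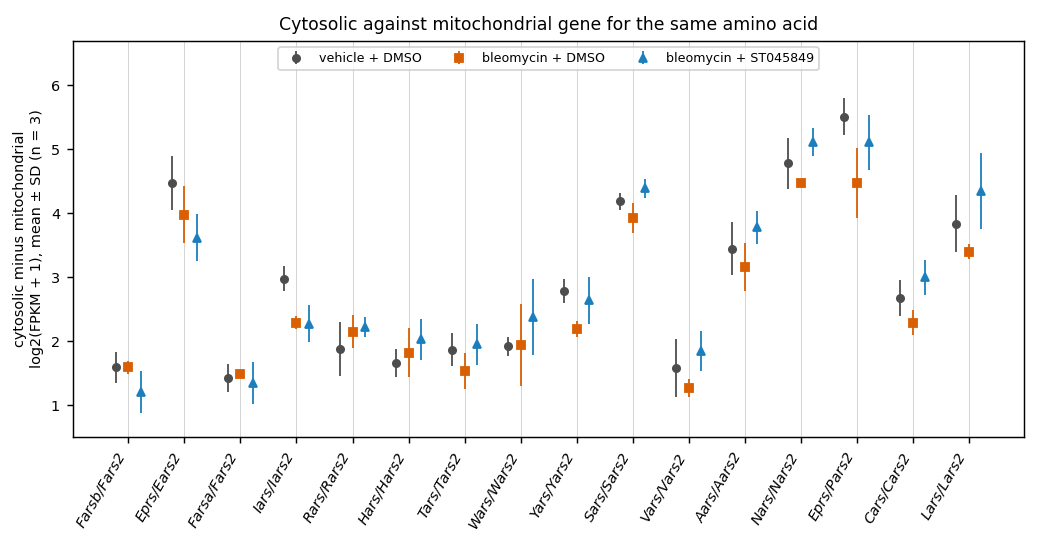
Cytosolic minus mitochondrial log2(FPKM + 1) for 16 gene pairs that serve the same amino acid (Mars1/Mars2, below the filter, is left out), as mean ± SD of 3 libraries in each group, ordered by the shift between bleomycin and bleomycin plus ST045849. Lars/Lars2, at the right end, goes from 3.40 to 4.35, and Farsb/Fars2, at the left end, from 1.59 to 1.21.

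Bleomycin plus ST045849 against vehicle left 0 of 20 cytosolic and 0 of 15 mitochondrial genes called, where 8.11% of all genes were called higher and 1.74% lower. Unadjusted p-values under 0.05 were found for 4 cytosolic genes (3 higher) and 3 mitochondrial genes (2 higher), against 31.1% of all genes. The median was 0.27 for the cytosolic and 0.17 for the mitochondrial set, beside 0.19 for all genes. After median-of-ratios scaling these were 0.04, -0.02 and -0.01. Eprs had ST045849 libraries wholly below vehicle, as did 6.66% of all genes, with a difference of -0.69 ± 0.21 (adjusted p = 0.0651), and fell after median-of-ratios scaling (adjusted p = 0.0201, where 3.24% of all genes were called lower) and under quantile normalization (adjusted p = 0.0218, where 2.59% were). With the length trend removed the Eprs difference was -0.22 (adjusted p = 0.575). In these 2 groups alone with the replicate block its adjusted p was 0.272. Mars1 differed by 0.64 ± 0.23 (adjusted p = 0.0915), and Fars2 by 0.62 ± 0.22 (adjusted p = 0.0908).

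Hars, the histidine enzyme, stood at 39.2, 24.8 and 32.3 FPKM in vehicle, at 28.6, 37.3 and 38 in bleomycin, and at 36.4, 55.4 and 54 with ST045849. It differed from vehicle by 0.58 ± 0.24 (adjusted p = 0.131), and 7.97% of its exon length is overlapped by Hars2 on the opposite strand. Farsa, a subunit of the phenylalanine enzyme, stood at 23.7, 14.1 and 19 FPKM in vehicle, at 16.1, 19.4 and 19.7 in bleomycin, and at 22.2, 34.8 and 26.3 with ST045849. Its ST045849 libraries lay wholly above bleomycin, with a difference of 0.55 ± 0.24 (adjusted p = 0.212, and 0.0573 when paired). Hars and Farsa overlapped vehicle when ST045849 was present. Lars was closest to its vehicle level, with a difference of 0.00 ± 0.24. Among mitochondrial genes Vars2, the valine enzyme, was closest, at -0.01 ± 0.19, with 7.62, 7.59 and 5.61 FPKM in vehicle, 8.91, 8.35 and 6.69 in bleomycin, and 7.92, 6.56 and 6.07 with ST045849. Yars2 stood at 5.07, 6.13 and 8.02 FPKM with ST045849 and differed from vehicle by 0.62 ± 0.28 (adjusted p = 0.16).

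Genes that act beside the synthetases were counted in the same comparison of ST045849 with bleomycin. Of the 3 scaffold genes of the multisynthetase complex, 0 passed in the fit of all libraries and Aimp1 (27.6 to 48.3 FPKM as group means, adjusted p = 0.0285) and Eef1e1 rose in the paired fit, where 11.3% of all genes did, and neither with the length trend also removed (adjusted p = 0.0587 and 0.154). Of 4 genes that clear misacylated tRNA, Aarsd1 and Prorsd1 rose in the paired fit and neither with the length trend also removed (adjusted p = 0.109 and 0.29). Of 5 cytosolic elongation factor genes, Eef1a1 and Eef2 did not pass in the paired fit (adjusted p = 0.13 and 0.625). The other 3 (Eef1b2, Eef1d and Eef1g) rose in that fit, Eef1d from 52.3 to 95.5 FPKM (adjusted p = 0.0206). Of these 3, 1 (Eef1d, adjusted p = 0.0419) passed with the length trend also removed. Of 9 mitochondrial translation factor genes and 4 genes of mitochondrial tRNA amidation and formylation, 0 rose and 0 fell in either fit, with medians of 0.42 and 0.16.

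Of 22 tested genes of the amino acid response other than synthetases, a list chosen with earlier results of these data known, 0 passed in the fit of all libraries. The change was above 0 in 21 of them (55.1% of all genes), with a median of 1.23. In the paired fit 19 rose (11.3% of all genes), and 12 with the length trend also removed (0.627% of all genes). Atf4, the transcription factor named above, had a mean of 103 FPKM in bleomycin and 338 with ST045849, a difference of 1.66 ± 0.42 (adjusted p = 0.203, and 0.0115 when paired). With the length trend removed its adjusted p was 0.311 in the fit of all libraries and 0.0492 in the paired fit. Slc7a3, a carrier of basic amino acids, went from 4.57 to 18.6 FPKM, a difference of 1.78 ± 0.23 (adjusted p = 0.0662, and 0.00372 when paired). Asns, asparagine synthetase, went from 52.1 to 154 FPKM, a difference of 1.49 ± 0.33 (adjusted p = 0.203, and 0.00812 when paired). Beside them the largest difference among the 20 cytosolic synthetase genes was that of Gars, 0.93, and the gap between them was not tested. Of 6 genes for the eIF2 kinases and their opposing phosphatase subunits, which set the translation of Atf4, 3 had a change above 0, and the list median was -0.02. Ppp1r15a rose in the paired fit (17.6 to 37.2 FPKM, adjusted p = 0.0421, and 0.154 with the length trend also removed). The kinase gene Eif2ak4 differed by -0.47 ± 0.19 (adjusted p = 0.204, and 0.0904 when paired), with ST045849 libraries wholly below bleomycin. Eif2ak2 differed by -0.58 ± 0.25 (adjusted p = 0.213, and 0.0577 when paired), and its libraries overlapped. Ogt, which encodes the target of ST045849, stood at 42.7, 29.3 and 38.8 FPKM in bleomycin and at 23.4, 10.3 and 22.3 with ST045849, a difference of -1.01 ± 0.33 (adjusted p = 0.203). In vehicle Ogt stood at 28.1, 48.9 and 48.7 FPKM. Between ST045849 and vehicle Ogt fell by 1.16 ± 0.33 (adjusted p = 0.047), where 1.74% of all genes were called lower. Its mRNA is no check of the labels, since the inhibitor acts on the enzyme.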

How the data were processed

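RNA was sequenced from 9 libraries in 3 groups of 3. Per the submitters' processing notes, the tools were Trimmomatic and STAR and the genome build GRCm38. Tool versions are not stated there. The deposited values are FPKM per gene, made by the authors; the counting program, annotation and use of strand were not given in the sources used here. Low FPKM values multiplied by exon length were checked for whole-read steps, and 15.5 to 23.1% lay within 0.02 of one, so that reads were not recovered and no count test was run.

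A gene was tested if 3 or more libraries reached 1 FPKM. All 9 libraries entered a single limma fit (limma 3.58.1, R 4.3.3) of log2(FPKM + 1) with a variance trend. Degrees of freedom were 6 residual and 4.95 prior, and adjustment was by Benjamini-Hochberg over all tested genes (threshold 0.05). A fold on this scale understates the change of low genes. Positions, exon lengths and overlaps came from GENCODE vM21, which held 99.5% of the identifiers (260 were not found). The length trend was removed by loess (span 0.5).

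Between bleomycin and bleomycin plus ST045849, deviations of equal replicate numbers correlated at 0.466, 0.481 and 0.5, so that a fit of these 2 groups with a replicate block is given. This pairing comes from the data and not from the labels. Alternatives were 11 settings and each library left out; leaving out each pair was added after seeing the data. The script was tested on simulated data. The members and gene lists were chosen with earlier results of these data known. Values in all libraries are given for members called, for the 5 cytosolic and 3 mitochondrial members with the smallest p and the member of each set with the smallest change in each comparison, for Gars and Kars, and for the partner gene of each in the other compartment. A further match of the promoter motif is not reported here.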

Additional observations from a re-analysis of the deposited data

How the results depend on the processing

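Of 34 results for single synthetase genes under 674 alternative values, 640 stayed on the same side of the threshold, 10 lost the call, 24 gained one and 0 called values changed sign, while 28 uncalled values did. The count of cytosolic genes called between bleomycin and vehicle was 1 (Eprs), and 0 with no filter, with a mean of at least 5 FPKM and under quantile normalization; leaving out 1 library gave 0 to 1. Between bleomycin plus ST045849 and bleomycin the cytosolic count was 0, and 8 in the fit of 2 groups with the replicate block, 2 with the length trend removed as well, 9 with pair 1 left out, and 0 to 5 when 1 library was left out. The mitochondrial count there was 0, and 1 with the replicate block, 4 with pair 1 left out, and 0 to 1 when 1 library was left out. The replicate block in the fit of all 9 libraries gave 0 in both sets and 0 over all 12441 genes. Against vehicle, bleomycin plus ST045849 had a cytosolic count of 0, and 1 after median-of-ratios scaling, 1 under quantile normalization (both Eprs, lower), 1 with array weights (Mars1, higher), and 0 to 3 when 1 library was left out; the mitochondrial count was 0, and 2 with array weights (Fars2 higher, Lars2 lower) and 0 to 1 when 1 library was left out. In that comparison array weights called 2119 of all 12441 genes higher and 648 lower. The cytosolic minus mitochondrial difference of medians was -0.14 for bleomycin against vehicle, and -0.33 without vehicle replicate 2. With ST045849 against bleomycin it was 0.29, 0.00 under quantile normalization and 0.45 in the paired fit with pair 3 left out, and with ST045849 against vehicle 0.10 and -0.10 under quantile normalization. The causes were not tested. In the 2 comparisons with vehicle, equal numbers did not deviate together in every pair (-0.0711 to 0.546 and -0.519 to 0.424). Whether samples of equal number share an origin is not known from these values or the labels. There the replicate block in 2 groups alone left the member counts at 1 and 0, while calls over all genes in 2 groups alone went from 1024 without the block to 800 with it, and from 621 to 199. Depth is not given, and 3 libraries a group limit the precision.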
